A study of Arabidopsis thaliana with 8 samples.

Results

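The cysteine-rich receptor-like kinases (CRKs) of *Arabidopsis thaliana* were examined gene by gene in rosette leaves of 4 lines. The genes were taken by locus identifier from a given list of 41 CRK loci, out of 37336 genes in the count table, by family membership and not by a measured level, although the family itself was picked for description with earlier results of these data known. Of the 41 genes, 40 passed the filter on low counts, among 23916 tested genes in all. *CRK33* had 0 counts in each of the 8 libraries, which allows a level of up to 0.0287 to 0.0599 CPM (read counts relative to the library's size, here 3 counts per library), and the gene was not tested. The lines were the wild type Col-0, a *big* mutant, a *mips1* mutant and the *mips1 big* line that carries both mutations, all in the Col-0 background, with 2 libraries each. *MIPS1* encodes the enzyme of the rate-limiting step of myo-inositol synthesis, and *BIG* a very large calossin-like protein. The study's text names the *mips1-1* allele and calls its *BIG* allele *somi2*, a deletion that brings an early stop codon, found in a screen for suppressors of the leaf lesions of *mips1*, whereas the deposited labels say only *big*. Per the labels, every line was grown for 1 week in vitro under long days (16 h of light), for 2 weeks in soil under short days (8 h of light) and for 5 days under long days, the condition in which *mips1* forms lesions, and the study's RNA-seq methods give other lengths for the last periods. Leaves of several plants were pooled for each RNA, and no source says whether the libraries of a line came from separate growth batches, so p-values measure the spread between these libraries, which may be technical.

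CRKs are receptor-like kinases of the plasma membrane. Their extracellular part carries DUF26 domains with a conserved pattern of cysteines, followed by a membrane-spanning segment and a cytosolic serine/threonine kinase domain. Many members stand in tandem arrays on chromosome 4, and the family is known for transcripts induced by pathogens, salicylic acid (SA) and reactive oxygen species. Several members act with pattern receptors, with the cytosolic kinase BIK1 or with the NADPH oxidase RBOHD, and overexpression of some of them triggers cell death or raises resistance to bacteria. The transcripts were measured by single-end sequencing of poly(A) RNA, and levels are CPM scaled by TMM (trimmed mean of M values) or, for comparison between genes, RPKM (CPM per kb of exon). Fold changes are log2 values from a quasi-likelihood fit in edgeR over all 8 libraries, with their standard error (SE), and a gene is called changed at a Benjamini-Hochberg adjusted p under 0.05 over all tested genes.

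Libraries held 50123257 to 104501879 counts. The Col-0 pair stood further apart than the pairs of the other lines, with a mean chi-square per gene between its libraries of 128 (median 3.42) against 4.95 to 10.8 (medians 0.979 to 1.597), and 20 genes made up 76.3% of its sum. Without the first or the second Col-0 library, 34 and 35 CRK genes rose and 4 and 4 fell in *mips1*, 16 and 16 rose and 4 and 6 fell in *big*, and 23 and 21 rose and 12 and 12 fell in *mips1 big*, beside the counts from all libraries given with each comparison. The targeted transcripts followed the labels for *MIPS1*, at 119.7 and 152 CPM in Col-0 and 104 and 94.7 in *big* against 5.30 and 6.12 in *mips1* and 9.85 and 10.8 in *mips1 big*. *BIG* was read at 113 and 132 CPM in Col-0, 57.2 and 62.1 in *big*, 205 and 212 in *mips1* and 93.4 and 89.9 in *mips1 big*, so that both lines labelled with the *big* mutation lay below Col-0 and *mips1* without overlap and kept a part of the transcript. The libraries showed leaf tissue: the 4 leaf mesophyll markers (*RBCS1A*, *RBCS2B*, *LHCB2.1*, *CA1*) summed to 23025 and 23495 CPM in Col-0, and the 4 root markers to at most 0.828 CPM in any library. Against Col-0, the leaf markers fell in each mutant line, all 4 of them, to 16325 and 17258 CPM in *big*, 12921 and 14629 in *mips1 big* and 7080 and 7195 in *mips1*. *SAG13*, a gene of senescing leaves, stood at 4.11 and 3.40 CPM in Col-0, 3.04 and 2.81 in *big*, 454 and 444 in *mips1* and 25.3 and 23.7 in *mips1 big*, while the late senescence marker *SAG12* was at most 0.0148 CPM throughout. In *mips1* these shifts came with a higher summed CRK level, given below. In *big* and *mips1 big* the leaf markers also fell, while the TMM-scaled CRK sum was 461 and 397 CPM against 464 in Col-0. The part of these shifts in the CRK levels was not tested. In pooled leaves, fewer cells of a type and less RNA per cell cannot be told apart.

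Of the 41 genes, 33 lie in 4 arrays on chromosome 4 (positions per the deposited table, TAIR10). Array 4A runs from *CRK5* to *CRK24* without a gap in numbering (chr4:12117491-12191704, 20 genes over 74.2 kb). Array 4B holds *CRK30* to *CRK34* (chr4:6963521-6989793, 5 genes), array 4C *CRK36* to *CRK40* (chr4:2231717-2292965, 5 genes) and array 4D *CRK27* to *CRK29* (chr4:11319139-11405235, 3 genes). The other 8 genes lie outside these arrays: *CRK2* and *CRK3* side by side on chromosome 1, *CRK4* on chromosome 3, *CRK42* on chromosome 5, and *CRK25*, *CRK26*, *CRK41* and *CRK45* elsewhere on chromosome 4. The counting command admitted multi-mapped reads but set a minimum mapping quality of 10. Whether such reads passed that limit is not known, because the mapping settings are not given. A read over overlapping genes was given to each of them. It was therefore asked how far 75-base reads can tell the paralogues apart. For 27 of the 41 genes, no 75-base window of the exons occurs elsewhere in the genome, and for 4 genes more than 10% of the windows do. *CRK6* and *CRK8* share 306 windows (15.0% of the windows of *CRK6* and 12.2% of those of *CRK8* are repeated), and *CRK13* and *CRK22* share 290 (12.9% and 13.9%). On the same strand, *CRK16* and *CRK17* overlap by 776 bp of exon (38.2% of *CRK16*) and *CRK28* and *CRK29* by 470 bp (15.4% of *CRK28*), and *CRK25* overlaps the kinesin gene *ATK5* antisense by 391 bp (18.0% of *CRK25*). Values of these genes are therefore less certain than those of the rest, and strand was not used in counting.

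The W-box core TTGAC is the sequence that WRKY transcription factors bind, and the 300 bases before each gene's start (RefSeq, TAIR10.1) were searched for it on both strands. It was found in 31 of the 41 windows (75.6%), against 49.6% of the windows of all 37049 genes on chromosomes 1 to 5. At least 2 matches were found in 19 windows (46.3%) against 17.1% of all, and at least 3 in 10 (24.4%) against 4.80%, at a median GC content of 33.0% against 32.0%. In 8 of the CRK windows part of another annotated gene lies in the window. A match is a description of these letters, not a site of binding. Printed here are the window with most matches (*CRK11*, 6 on chr4:12143859-12144158, minus strand), those of the 2 genes that were nearly silent in Col-0 and rose in each mutant line (*CRK31*, 4 matches, chr4:6967409-6967708, and *CRK32*, 4 matches, chr4:6971101-6971400, both plus strand), that of *CRK37*, which rose most in *mips1* among the 14 genes named by rule, which have a mean of at least 1 CPM and one of the 3 largest rises or falls in some comparison (2 matches, chr4:2238070-2238369, plus strand), and those of 2 genes that fell in *mips1* and held no match (*CRK21*, chr4:12180937-12181236, minus strand, and *CRK30*, chr4:6963221-6963520, plus strand). Each is read 5′ to 3′ towards the gene, with TTGAC, or GTCAA for a match on the other strand, in capitals. The printed windows do not stand for all members. *CRK29* and *CRK42*, which also fell in *mips1*, hold 1 match each, and some genes that rose, such as *CRK12*, *CRK13* and *CRK45*, hold 0.
CRK11: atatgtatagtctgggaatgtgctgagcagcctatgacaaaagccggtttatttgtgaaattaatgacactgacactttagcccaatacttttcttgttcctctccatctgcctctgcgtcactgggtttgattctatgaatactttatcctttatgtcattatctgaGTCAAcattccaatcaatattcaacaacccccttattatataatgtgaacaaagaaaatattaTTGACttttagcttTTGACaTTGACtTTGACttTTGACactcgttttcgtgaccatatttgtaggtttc
CRK31: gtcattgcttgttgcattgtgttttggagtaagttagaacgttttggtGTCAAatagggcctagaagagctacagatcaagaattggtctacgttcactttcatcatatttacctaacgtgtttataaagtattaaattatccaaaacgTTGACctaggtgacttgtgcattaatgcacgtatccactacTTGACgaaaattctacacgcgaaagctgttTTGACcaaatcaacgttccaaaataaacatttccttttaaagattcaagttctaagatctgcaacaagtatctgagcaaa
CRK32: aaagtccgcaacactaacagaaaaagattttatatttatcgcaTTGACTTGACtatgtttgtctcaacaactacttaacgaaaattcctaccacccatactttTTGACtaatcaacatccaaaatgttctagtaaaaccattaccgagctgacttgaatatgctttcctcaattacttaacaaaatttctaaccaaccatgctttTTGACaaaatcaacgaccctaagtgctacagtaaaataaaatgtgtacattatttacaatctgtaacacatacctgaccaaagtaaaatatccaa
CRK37: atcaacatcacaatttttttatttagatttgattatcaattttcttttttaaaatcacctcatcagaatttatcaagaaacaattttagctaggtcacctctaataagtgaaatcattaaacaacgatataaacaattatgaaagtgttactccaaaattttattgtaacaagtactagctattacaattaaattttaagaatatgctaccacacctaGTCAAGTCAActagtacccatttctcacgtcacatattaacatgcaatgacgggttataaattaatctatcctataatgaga
CRK21: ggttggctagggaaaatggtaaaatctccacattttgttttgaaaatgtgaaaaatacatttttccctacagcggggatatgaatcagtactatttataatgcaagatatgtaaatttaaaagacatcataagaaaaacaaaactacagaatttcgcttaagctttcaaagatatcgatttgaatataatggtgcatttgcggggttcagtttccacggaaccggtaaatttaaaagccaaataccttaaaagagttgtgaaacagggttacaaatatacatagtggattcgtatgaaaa
CRK30: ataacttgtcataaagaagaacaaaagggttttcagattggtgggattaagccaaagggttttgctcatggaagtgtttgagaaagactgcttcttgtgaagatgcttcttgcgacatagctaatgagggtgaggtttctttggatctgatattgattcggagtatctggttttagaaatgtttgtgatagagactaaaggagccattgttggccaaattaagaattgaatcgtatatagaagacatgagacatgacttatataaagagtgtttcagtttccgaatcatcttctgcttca

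In *mips1* the CRK family as a whole was far more abundant than in the other lines. The transcripts of the 41 genes summed to 464 ± 2.30 CPM in Col-0 (mean ± SD, n = 2), 461 ± 0.602 in *big*, 2076 ± 23.4 in *mips1* and 397 ± 1.41 in *mips1 big*. The sum in *mips1* was 4.48-fold that of Col-0, and that of *mips1 big* 0.855-fold. With CPM taken from library size alone the sums were 391, 470, 2200 and 436, so that the place of *mips1 big* below Col-0 and of *big* beside it depended on the scaling, and the place of *mips1* did not. In Col-0, 28 genes had a mean of at least 1 CPM and 14 of at least 10 CPM, against 38 and 28 in *mips1*, and 29 and 16 in *mips1 big*. The median level per length was 1.07 RPKM in Col-0, 1.99 in *big*, 9.84 in *mips1* and 2.90 in *mips1 big*.

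**Figure D1:**
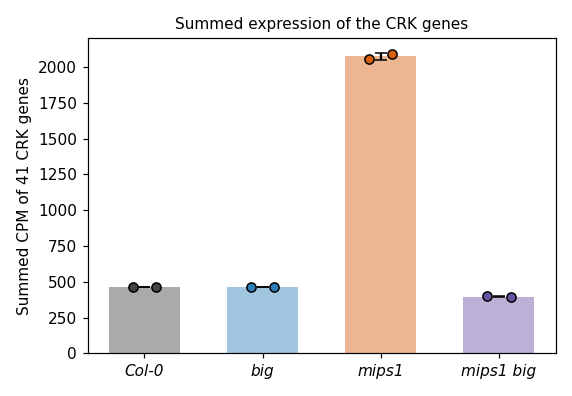
Summed CPM of the 41 CRK genes (y axis) in each line (x axis); bars are means, points the 2 libraries and error bars the SD. The *mips1* libraries reach 2059 and 2093 CPM, and the 6 others lie between 396 and 466.

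The lines also differed in which members made up the total. In Col-0 the 5 most abundant members by CPM, *CRK21*, *CRK40*, *CRK19*, *CRK22* and *CRK10*, held 52.7% of the family's counts, and on the RPKM scale the same 5 led, from 27.0 for *CRK21* to 15.1 for *CRK10*. In *mips1* the order was another one: *CRK4* (97.5 RPKM), *CRK45* (92.6), *CRK6* (78.4), *CRK18* (66.0) and *CRK9* (50.3) led per length. *CRK6* and *CRK45* had stood at only 0.843 and 1.48 RPKM in Col-0. *CRK21*, the first in Col-0, was down at 8.06 RPKM in *mips1*. In *mips1 big* the leaders were again those of Col-0 for the most part, *CRK21* (14.4 RPKM), *CRK10* (12.5), *CRK22* (12.4), *CRK40* (11.2) and *CRK18* (10.1), and neighbours in this order differed little.

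Against Col-0, 34 of the 40 tested members rose in *mips1*, 4 fell and 2 were not called. Among all tested genes, 36% were called up and 37.1% down in this comparison, and the median log2 fold change was 3.08 over the members and -0.03 over all genes. By at least 2-fold, 29 members rose and 3 fell, against 17.3% and 14.3% of all genes. The 2 groups of libraries did not overlap for any of the 40 members, as for 84.2% of all genes. The call of each of the 34 rises held when any library was left out, and that of the fall of *CRK29* did not.

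**Figure D2:**
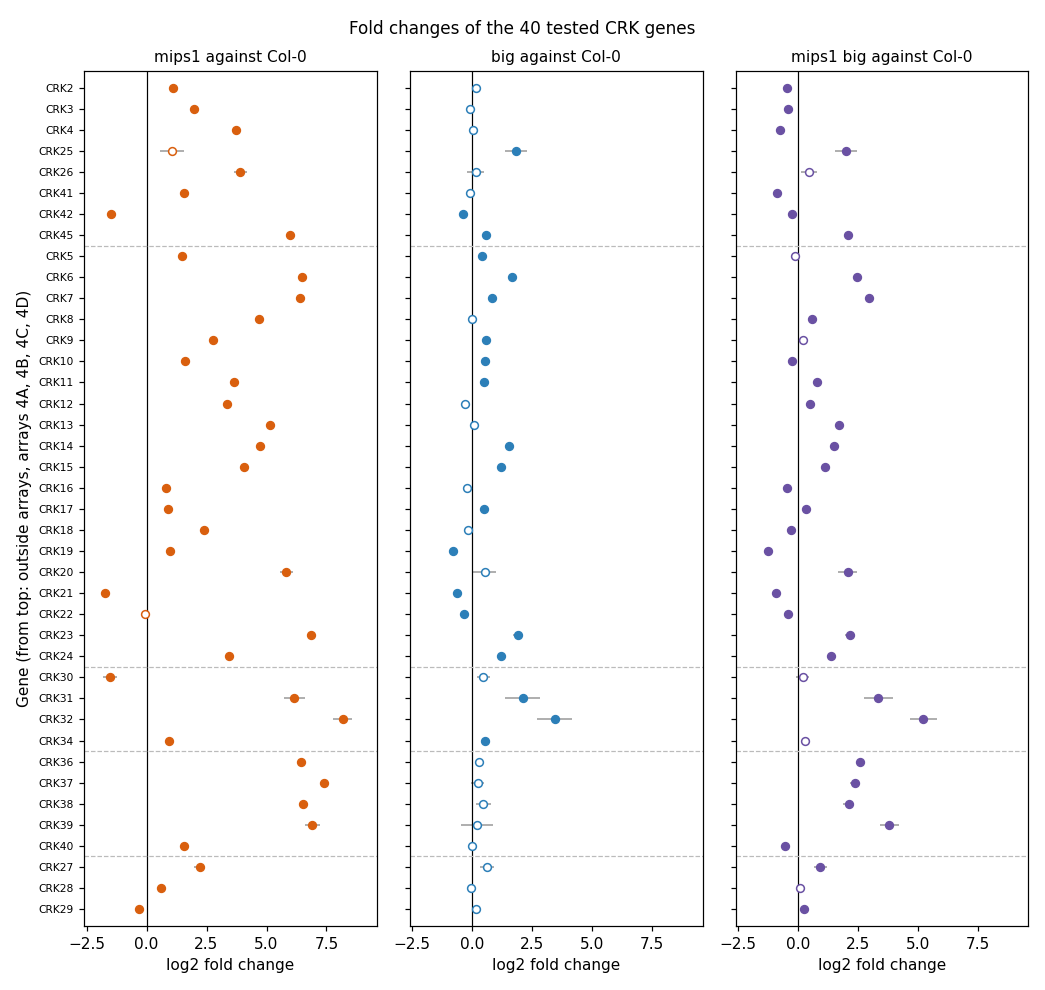
Log2 fold change against Col-0 (x axis) of the 40 tested CRK genes (y axis, grouped by array between dashed lines) in *mips1*, *big* and *mips1 big*; filled points were called at adjusted p under 0.05, open points were not, and bars are SE. In *mips1*, 34 members lie to the right among those called, and the points of *CRK31* and *CRK32* rest on 3 counts and 1 count in Col-0, while the *big* panel holds 20 open points.

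Array 4C stood out by size, with a median log2 fold change of 6.52 in *mips1* over its 5 members, all of them called up. *CRK37* (AT4G04500) was measured at 0.406 and 0.247 CPM in Col-0, 0.386 and 0.317 in *big*, 49.5 and 51.6 in *mips1* and 1.41 and 1.72 in *mips1 big*. Its *mips1* libraries were far above all others, and its *big* libraries lay within the range of Col-0. The fold change in *mips1* was 7.38 ± 0.15 (SE), adjusted p = 5.40e-13. *CRK36* (AT4G04490), whose protein interacts with BIK1 and raises pattern-triggered defence when overexpressed, stood at 1.22 and 1.16 CPM in Col-0, 1.33 and 1.59 in *big*, 104 and 105 in *mips1* and 7.03 and 7.29 in *mips1 big*. Here *mips1 big* was intermediate, above Col-0 and *big* in both libraries and below *mips1*, and the rise in *mips1* was 6.46 ± 0.10 (SE) (adjusted p = 5.19e-14). *CRK39* (AT4G04540) was near the limit of detection in Col-0, with 2 and 6 counts, and was read at 0.0478 and 0.0706 CPM in Col-0, 0.0276 and 0.121 in *big*, 7.06 and 8.45 in *mips1* and 1.02 and 0.769 in *mips1 big*. It rose by 6.91 ± 0.33 (SE) in *mips1*. Its neighbour *CRK40* was already at 52.2 and 49.1 CPM in Col-0 and rose to 142 and 156, a log2 fold change of 1.56, and *CRK38* rose by 6.52 from 0.119 and 0.129 CPM. The array thus held both nearly silent members with changes over 6 and a well expressed member with a change under 2 on the log2 scale.

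In array 4A, 18 of the 20 members rose in *mips1*, *CRK21* fell and *CRK22* was not called, with a median of 3.40. *CRK6* and *CRK7*, known from responses to extracellular reactive oxygen species, were the members with the largest rises after *CRK23*. *CRK6* (AT4G23140) stood at 1.89 and 2.49 CPM in Col-0, 6.87 and 7.21 in *big*, 204 and 203 in *mips1* and 12.5 and 11.9 in *mips1 big*, so that the lines fell in the order *mips1*, *mips1 big*, *big* and Col-0 without overlap. *CRK7* (AT4G23150) was measured at 1.24 and 0.882 CPM in Col-0, 1.82 and 1.78 in *big*, 84.2 and 86.9 in *mips1* and 7.50 and 8.04 in *mips1 big*, in the same order of the lines. The rises in *mips1* were 6.50 ± 0.11 (SE) for *CRK6* and 6.40 ± 0.12 (SE) for *CRK7*, with adjusted p of 1.08e-13 and 1.89e-13. *CRK23* (AT4G23310) moved from 0.167 and 0.224 CPM in Col-0 to 24.98 and 22.3 in *mips1*, 6.84 ± 0.15 (SE), and was at 0.732 and 0.786 in *big* and 0.909 and 0.917 in *mips1 big*. Both single-mutation lines were thus above Col-0, and *mips1 big* was close to *big*. *CRK13*, which on overexpression raises SA-dependent resistance, rose by 5.13 (1.07 and 0.976 CPM in Col-0, 36.4 and 34.6 in *mips1*), although its share of windows common with *CRK22* applies. *CRK20*, known to trigger cell death when overexpressed, rose by 5.83 ± 0.28 (SE) from 2 and 7 counts in Col-0 to 303 and 437.

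The well expressed members of array 4A moved less. *CRK10* (AT4G23180) was at 39.0 and 37.6 CPM in Col-0, 55.4 and 56.4 in *big*, 116 and 117 in *mips1* and 31.3 and 32.2 in *mips1 big*. Each mutant line differed from Col-0 without overlap, *mips1* and *big* above and *mips1 big* below, and the change in *mips1* was 1.61 ± 0.06 (SE) (adjusted p = 1.14e-10). *CRK19* (AT4G23270), another member whose overexpression triggers cell death, stood at 48.8 and 48.4 CPM in Col-0, 28.6 and 27.4 in *big*, 93.9 and 95.9 in *mips1* and 20.7 and 20.0 in *mips1 big*. It rose in *mips1* by 0.97 ± 0.06 (SE) and was lower than Col-0 in the other mutant lines. *CRK14* (AT4G23220) was read at 2.01 and 2.21 CPM in Col-0, 6.32 and 6.14 in *big*, 55.2 and 57.0 in *mips1* and 6.31 and 5.53 in *mips1 big*, with *big* and *mips1 big* side by side between Col-0 and *mips1*. *CRK5*, also linked to cell death and resistance on overexpression, rose in *mips1* by 1.49, *CRK9* by 2.78, *CRK11* by 3.65 and *CRK18* by 2.40. The remaining risers of the array were *CRK8* (4.70), *CRK15* (4.07), *CRK24* (3.43), *CRK12* (3.37), *CRK17* (0.90) and *CRK16* (0.81), the last 2 with overlapping exons. *CRK22* was at 42.1 and 43.6 CPM in Col-0 and 40.2 and 41.2 in *mips1*, -0.08 ± 0.06 (SE), adjusted p = 0.301, and with library size alone its value was 0.25.

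**Figure D3:**
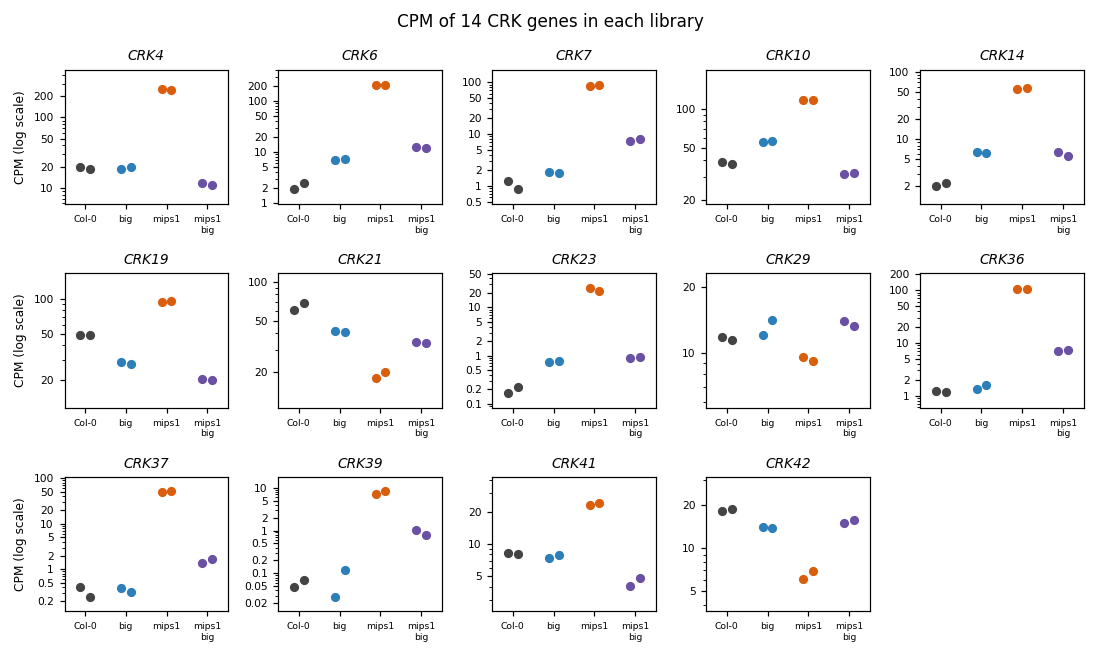
CPM on a log axis (y) of the 14 CRK genes named by rule in each of the 8 libraries (points, by line on the x axis). *mips1* is the highest line for 11 of the genes and the lowest for *CRK21*, *CRK29* and *CRK42*.

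In array 4B, *CRK32* and *CRK31* went from almost no reads to clear expression. *CRK32* had 0 and 1 counts in Col-0, 7 and 7 in *big*, 197 and 302 in *mips1* and 29 and 24 in *mips1 big*. With 1 count in Col-0 in all, the ratio of *mips1* to Col-0 was 349, with an exact 95% interval of 62.4 to 13820 that covers counting error only. *CRK31* had 2 and 1 counts in Col-0, 9 and 6 in *big*, 129 and 203 in *mips1* and 27 and 12 in *mips1 big*, and the ratio of *mips1* to Col-0 was 77.4 (26.3 to 377). The windows before both genes hold 4 matches to TTGAC each. *CRK34* rose by 0.93, and *CRK30*, the first gene of the array, fell by 1.53 ± 0.31 (SE), from 0.860 and 0.718 CPM in Col-0 to 0.321 and 0.228. The neighbours *CRK30* and *CRK31* thus moved in opposite directions, and *CRK33*, at 0 counts, lies between *CRK32* and *CRK34*, which both rose.

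Array 4D moved least. *CRK27* rose by 2.21 from 0.287 and 0.247 CPM, and *CRK28*, a partner of the flagellin receptor complex, by 0.59 ± 0.15 (SE) from 9.98 and 7.20 CPM. *CRK29* (AT4G21410) was measured at 11.8 and 11.5 CPM in Col-0, 12.1 and 14.1 in *big*, 9.63 and 9.21 in *mips1* and 14.04 and 13.2 in *mips1 big*. Its *mips1* libraries were lowest, with a log2 fold change of -0.31 ± 0.09 (SE) (adjusted p = 0.00729); without the second *mips1* library this was -0.25 (adjusted p = 0.0839), and with library size alone 0.02. Outside the arrays, *CRK45* rose most, followed by *CRK26* and *CRK4*. *CRK45* (also *ARCK1*, which acts with CRK36 in abscisic acid and osmotic stress responses) was at 2.698 and 2.29 CPM in Col-0, 3.53 and 3.66 in *big*, 148 and 164 in *mips1* and 10.5 and 10.2 in *mips1 big*, a rise in *mips1* of 5.99 ± 0.10 (SE). *CRK4* (AT3G45860), whose overexpression triggers cell death and raises defence responses, was at 19.5 and 18.4 CPM in Col-0, 18.6 and 19.5 in *big*, 255 and 245 in *mips1* and 11.8 and 10.9 in *mips1 big*. *CRK4* in *big* overlapped Col-0, while *mips1 big* was below both, and the rise in *mips1* was 3.72 ± 0.07 (SE) (adjusted p = 4.42e-13). *CRK2*, which phosphorylates RBOHD and so controls the oxidative burst, rose in *mips1* by 1.11 ± 0.08 (SE), from 28.0 and 33.9 CPM in Col-0 to 66.3 and 67.9, and its neighbour *CRK3* by 1.99. *CRK26* rose by 3.91 and *CRK41* by 1.54, and *CRK25*, at 0.0478 and 0.212 CPM in Col-0 and 0.447 and 0.219 in *mips1*, was not called (1.05 ± 0.49 (SE), adjusted p = 0.0721). Reads of *CRK25* and of its antisense neighbour cannot be told apart where they overlap, and without the second Col-0 library its value was 2.66 (adjusted p = 0.00577).

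Besides *CRK29* and *CRK30*, *CRK21* and *CRK42* fell in *mips1*. *CRK21* (AT4G23290) was at 60.1 and 68.2 CPM in Col-0, 42.0 and 41.0 in *big*, 18.2 and 20.1 in *mips1* and 34.6 and 33.8 in *mips1 big*. Every mutant line lay below Col-0, with *mips1* lowest, and its fall in *mips1* was -1.74 ± 0.08 (SE) (adjusted p = 6.91e-10). *CRK42* (AT5G40380) stood at 18.1 and 18.6 CPM in Col-0, 14.1 and 13.8 in *big*, 6.12 and 6.96 in *mips1* and 15.0 and 15.7 in *mips1 big*, and fell in *mips1* by 1.48 ± 0.08 (SE) with an adjusted p of 3.52e-09. In each of these 4 genes *mips1* was the lowest line in both libraries, as it was the highest in both libraries for the 34 that rose. How many of all tested genes have *mips1* as the outermost line was not counted. For 84.2% of all genes, the *mips1* and Col-0 libraries did not overlap. Of the 34 risers, 27 had a match to TTGAC in the upstream window and 18 at least 2, and of the 4 that fell, 2 had a match and 0 at least 2. Over all 41 CRK windows these counts were 31 and 19, and whether matches go with the direction of change was not tested.

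The *big* mutation alone changed fewer members and by smaller amounts. Against Col-0, 16 of the 40 rose, 4 fell and 20 were not called, beside 25.6% of all tested genes up and 23.6% down, and the median was 0.35. By at least 2-fold, 8 rose (9.03% of all genes) and 0 fell (2.51%). With only the *big* and Col-0 libraries in the fit, 36 members passed the filter, of which 14 rose and 4 fell, with a median of 0.24. Of the 22759 genes then tested, 5287 rose and 4787 fell. The other members passed the filter only in the fit with all lines. With library size alone, which put the median of all genes at 0.27, 11506 of the 23916 tested genes rose and 2109 fell. Of the members, 23 rose and 2 fell under that scaling, so the balance between directions leans on the scaling. Of the 16 rises called with TMM, 11 were in array 4A. There, *CRK23* rose by 1.89 ± 0.21 (SE), *CRK6* by 1.64 ± 0.11 and *CRK14* by 1.55 ± 0.10, followed by *CRK15* and *CRK24* (both 1.19), *CRK7* (0.83), *CRK9* (0.56) and *CRK10* (0.55). In array 4C, 0 of 5 were called, with fold changes from -0.01 to 0.46, although this array had the largest median in *mips1*; whether the arrays differ was not tested. In array 4B, *CRK32* had a ratio to Col-0 of 12.8 (exact 95% interval 1.95 to 542) and *CRK31* of 4.58 (1.29 to 24.7); the call of *CRK31* was lost without either *big* library (adjusted p = 0.143 without the first and 0.053 without the second) and without the second Col-0 library (0.34). *CRK25* rose by 1.83 ± 0.47 (SE). The 4 that fell were *CRK19* (-0.80 ± 0.06 (SE), adjusted p = 6.70e-07), *CRK21* (-0.63), *CRK42* (-0.40) and *CRK22* (-0.34). These 4 were among the well expressed members, at 6.44 to 27.0 RPKM in Col-0, and the falls of *CRK42* and *CRK22* were not called with library size alone (-0.12 and -0.07).

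The *mips1 big* line held members on both sides of Col-0. Of the 40, 22 rose, 12 fell and 6 were not called, beside 31.1% of all tested genes up and 30.7% down, with a median of 0.46. By at least 2-fold, 16 rose (12.7% of all genes) and 1 fell (5.01%). The largest rises among members named by rule were those of *CRK39* (3.80 ± 0.41 (SE)), *CRK7* (2.93 ± 0.12 (SE)) and *CRK36* (2.59 ± 0.10 (SE)), and *CRK32* reached a ratio of 44.8 (exact 95% interval 7.70 to 1802) on few counts. The 1 member that fell by more than 2-fold was *CRK19*, -1.26 ± 0.06 (SE) with an adjusted p of 7.04e-09, followed by *CRK21* (-0.91), *CRK41* (-0.88) and *CRK4* (-0.74). The smaller falls depended on the scaling: with library size alone, where the median of all genes was 0.38, 27 members rose and 5 fell. Of all 23916 tested genes, 13721 then rose and 2848 fell. Under that scaling *CRK10* and *CRK18* changed sign (-0.27 and -0.31 became 0.11 and 0.07), as did *CRK42* (-0.26 became 0.12) and *CRK5*, which was not called with TMM (-0.13 became 0.25). The call of *CRK42* was also lost without the first *mips1 big* library (-0.23, adjusted p = 0.0810). Against Col-0 the 3 mutant lines share the Col-0 libraries, so their values are given side by side only: *CRK41* (AT4G00970) was at 8.24 and 8.12 CPM in Col-0, 7.47 and 7.92 in *big*, 23.1 and 24.5 in *mips1* and 4.08 and 4.85 in *mips1 big*, highest in *mips1* and lowest in *mips1 big*.

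The effect of *mips1* in the *big* background was read by setting *mips1 big* against *big*. The libraries compared are others than for *mips1* against Col-0, but both comparisons share the fit's filter, scaling and estimate of the spread. Between *mips1 big* and *big*, 13 of the 40 members rose and 10 fell, beside 8.46% and 10.8% of all tested genes, and the median was 0.12. The sign of this median depended on members with few reads: with at least 10 counts in every library, which leaves 33 members, it was -0.047, with 9 up and 10 down. Of the 21133 genes that pass this stricter filter, 1954 rose and 2252 fell. With the usual filter, 9 members rose by at least 2-fold (2.23% of all genes) and 0 fell (1.35%). All 13 that rose had also risen in *mips1* against Col-0, as had 34 of the 40 members in all. Of the 10 that fell, 9 had risen there, and *CRK21* had fallen. The largest rises were those of *CRK39* (3.61 ± 0.38 (SE)), *CRK36* (2.30 ± 0.09 (SE)) and *CRK37* (2.13 ± 0.19 (SE)), all of array 4C, where 4 of 5 members rose and *CRK40* fell (-0.53). *CRK7* rose by 2.11 ± 0.11 (SE), *CRK13* by 1.63, *CRK45* by 1.52 and *CRK6* by 0.80. The largest falls were those of *CRK10* (-0.82 ± 0.06 (SE), adjusted p = 9.45e-07), *CRK41* (-0.79 ± 0.10 (SE)) and *CRK4* (-0.75 ± 0.07 (SE)). When each library was left out in turn, 10 of the 13 rises and 7 of the 10 falls were called every time; the calls of *CRK8*, *CRK11*, *CRK20*, *CRK3*, *CRK9* and *CRK21* were lost at least once, each without a *big* or a *mips1 big* library, and that of *CRK11* also without either *mips1* library.

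**Figure D4:**
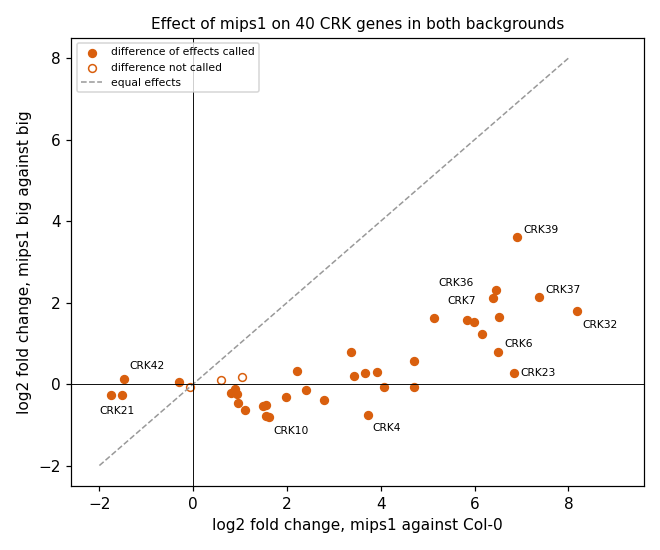
Log2 fold change of *mips1* against Col-0 (x axis) and of *mips1 big* against *big* (y axis) for the 40 tested CRK genes; filled points have a called difference between the effects, and the dashed line marks equal effects. Points at 6 and more on the x axis reach at most 3.61 on the y axis, and *CRK4* and *CRK10* lie below 0.

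Levels in Col-0, whose libraries enter this comparison only through the shared filter, scaling and estimate of the spread, sorted the called members by direction. The 13 that rose stood at 0.00265 to 2.09 RPKM in Col-0, and the 10 that fell at 3.38 to 27.0 RPKM, without overlap. This split was noticed after the values were seen. It was also fixed in part beforehand: members with few reads in *big*, such as *CRK32* (7 and 7 counts) and *CRK39* (2 and 8), had little room to be called lower. Across all tested genes the called ones were ordered alike: the 2023 that rose had a median of 2.37 RPKM in Col-0 (quartiles 0.413 and 7.25) and the 2583 that fell a median of 20.6 (8.34 and 52.2), so the order is not particular to the CRK genes. The 17 uncalled members spanned 0.0128 to 16.5 RPKM. Among them were members at high levels, such as *CRK22* (16.5 RPKM, -0.06 ± 0.06 (SE)) and *CRK18* (12.6 RPKM, -0.14 ± 0.07 (SE)).

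**Figure D5:**
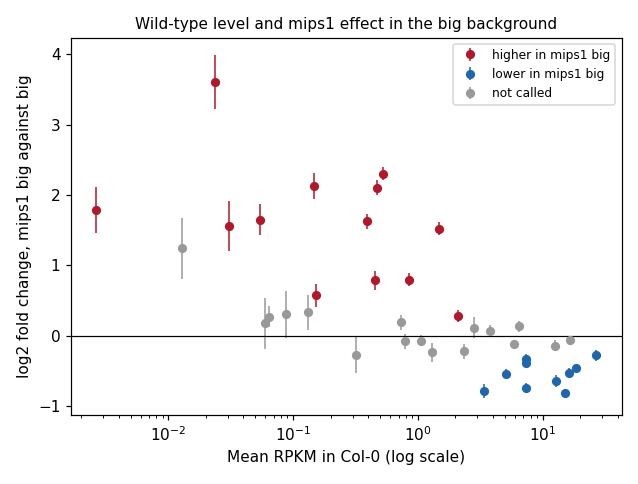
Mean RPKM in Col-0 on a log axis (x) and log2 fold change of *mips1 big* against *big* (y) of the 40 tested CRK genes; red points were called higher, blue points lower, grey points not called, and bars are SE. The 13 red points lie at up to 2.09 RPKM and the 10 blue ones at 3.38 RPKM or more.

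With *mips1 big* set against *mips1*, 35 of the 40 members were lower and 5 higher, beside 38.9% and 39.1% of all tested genes, and the median was -2.65. By at least 2-fold, 31 were lower (18.1% of all genes) and 2 higher (17.7%). The largest decreases were those of *CRK37* (-5.03 ± 0.12 (SE)), *CRK23* (-4.69 ± 0.12 (SE)) and *CRK4* (-4.46 ± 0.08 (SE), adjusted p = 3.51e-13), and *CRK38*, *CRK8* and *CRK6* also decreased by over 4 (-4.42, -4.14 and -4.06). The 5 that were higher were *CRK30* (1.72), *CRK42* (1.22 ± 0.08 (SE)), *CRK25* (0.96), *CRK21* (0.83 ± 0.08 (SE)) and *CRK29* (0.54 ± 0.09 (SE)). The call of *CRK25* was lost without any *big*, *mips1 big* or the second *mips1* library, with adjusted p from 0.053 to 0.364. The smallest decreases were those of *CRK22* (-0.33), *CRK28* (-0.53) and *CRK17* (-0.56), and the call of *CRK28* was lost without the first *mips1 big* library (-0.43, adjusted p = 0.0585).

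Whether *mips1* acted differently in the *big* background and in Col-0 was tested as the interaction of the mutations. It was negative in 33 of the 40 members, positive in 4 and not called in 3, beside 31.2% and 30.8% of all tested genes, with a median of -2.87, and all 33 differed by more than 2-fold (16.3% of all genes). *CRK23* had the most negative value (-6.58 ± 0.23 (SE), adjusted p = 2.13e-10), followed among members named by rule by *CRK6* (-5.70 ± 0.14 (SE)) and *CRK37* (-5.25 ± 0.31 (SE)). In *CRK23* the effect of *mips1* was 6.84 in Col-0 and 0.27 in the *big* background. The positive values were those of *CRK42* (1.62 ± 0.11 (SE)), *CRK21* (1.46 ± 0.11 (SE)), *CRK30* (1.25 ± 0.40 (SE)) and *CRK29* (0.37 ± 0.12 (SE)), the 4 genes that fell in *mips1*. The interaction contains the change in *mips1* against Col-0 with its sign reversed, so this opposite direction is in part built in. The calls of *CRK29* and *CRK30* were each lost without the first *big* library (adjusted p = 0.116 and 0.0577) and without the second *mips1* library (0.096 and 0.097), which left 2 positive calls; they were also lost without a *mips1 big* library (the first for *CRK29*, the second for *CRK30*), and that of *CRK29* without the first *mips1* library. That of *CRK39* (-3.30 ± 0.75 (SE)) was lost without the second *big* library, at -1.95 (adjusted p = 0.213), where *CRK39* had 2 and 8 counts in *big*. Not called were *CRK22* (0.01 ± 0.09 SE), *CRK25* (-0.87 ± 0.61) and *CRK28* (-0.48 ± 0.21). Leaving out 1 library gave a call for *CRK25* without the second Col-0 library (-2.47, adjusted p = 0.020) and for *CRK28* without the first Col-0 library (-0.71, adjusted p = 2.21e-04) or the second *mips1* library (-0.63, adjusted p = 0.0343).

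Genes that act around the CRKs were read in the same fit, in chosen lists. Of all tested genes, 36% were up and 37.1% down in *mips1*, and 31.1% and 30.7% in *mips1 big* against Col-0. Against *big*, 8.46% were up and 10.8% down in *mips1 big*, and 38.9% were lower in *mips1 big* than in *mips1*. Of 8 genes of SA synthesis and response, 8 rose in *mips1*, from 1.40 for *NPR1*, the SA co-activator, to 10.54 for *PR1*, and the SA synthesis gene *ICS1* rose by 3.90 ± 0.09 (SE). In *mips1 big* against *mips1*, all 8 were lower, and against Col-0, 6 were higher and 2 lower. *PR1* stood at 1.03 and 1.06 CPM in Col-0, 7.37 and 5.85 in *big*, 1561 and 1555 in *mips1* and 91.6 and 84.3 in *mips1 big*, with *mips1 big* between Col-0 and *mips1*, as for *CRK36* and *CRK7*. Of the 34 CRK genes that rose in *mips1*, 20 were called above Col-0 in *mips1 big* and 9, such as *CRK4*, below it. Among all 40 tested members these counts were 22 and 12, and the split among all genes that rose in *mips1* was not counted. Of 7 defence-related WRKY factors, 7 rose in *mips1* (1.87 for *WRKY70* to 4.54 for *WRKY60*) and 7 were lower in *mips1 big* than in *mips1*. In *mips1 big* against *big*, 2 of the 7 rose (*WRKY60*, 0.54 ± 0.15 (SE), and *WRKY6*, 0.31 ± 0.08 (SE)), 3 fell (*WRKY33*, -1.13 ± 0.08 (SE), *WRKY70*, -0.99 ± 0.07 (SE), and *WRKY18*, -0.59 ± 0.07 (SE)) and 2 were not called. Among 5 partners of receptor complexes and of the oxidative burst, *RBOHD* (2.58), *BIK1* (1.83), *RBOHF* (1.64) and the co-receptor gene *BAK1* (1.09) rose in *mips1*, and *FLS2*, the flagellin receptor gene, fell (-0.78 ± 0.06 (SE)).

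The plasmodesmata-located proteins (PDLPs) carry the same DUF26 domains outside the cell but no kinase. Of 8 PDLP genes, 2 rose in *mips1*, 4 fell and 2 were not called, with a median of -1.09, beside 36% of all tested genes up and 37.1% down. *PDLP5*, which restricts plasmodesmata in SA-dependent defence, rose by 3.33 ± 0.09 (SE), from 3.13 and 3.78 CPM in Col-0 to 35.6 and 35.1, and *PDLP1* by 1.01. The 4 that fell were *PDLP2* (-1.88), *PDLP3* (-1.67), *PDLP7* (-1.36) and *PDLP6* (-0.82).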

How the data were processed

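Rosette leaf RNA was read in 8 libraries, grouped by their labels into 4 lines with 2 libraries each. The authors trimmed 75-base single-end reads with Trimmomatic, mapped them to TAIR10 with STAR 2.7.0d and deposited raw counts per gene from featureCounts 1.6.3 on the exons of Araport11. The command in the file header admits multi-mapped reads and reads over several genes, sets a minimum mapping quality of 10 and ignores strand, while the mapping settings are not given in the sources used here. The deposited table also gives exon length in bp, from the authors' counting tool, which was used for RPKM. The deposited normalized counts and the authors' DESeq2 comparisons (base means, log2 fold changes, p-values) were not used.

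After filtering by filterByExpr and TMM scaling, the counts were fitted with edgeR 4.0.16, glmQLFit and glmQLFTest (R 4.3.3, limma 3.58.1), robust, with 1 mean per line, 4 residual degrees of freedom and Benjamini-Hochberg adjustment over 23916 genes. The SE is the log2 fold change divided by the square root of F. The script was tested on simulated data. Alternatives were DESeq2 1.42.0, RLE factors, scaling by library size, a filter of 1 count over all libraries or of 10 in each, fits on the compared libraries alone, a replicate block, a least absolute log2 fold change of 1, and leaving out each library. Gene names matched RefSeq for 37051 of 37336 genes (99.2%), of which 99.5% had the same start and end, and sequences come from its TAIR10.1 genome. Tables and figures used Python 3.11.15, pandas 2.3.3 and matplotlib 3.10.9.

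Full values are given for the 3 members with the largest rise and the 3 with the largest fall in each comparison among those called, with a mean of at least 1 CPM and no overlap between groups, and other members were named after their values were seen. The members and lists were chosen with earlier results of these data known.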

Additional observations from a re-analysis of the deposited data

Results flagged for a closer look

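The interaction test in edgeR asked whether the effect of *mips1* differed between the *big* background and Col-0. The difference was called negative in 33 of the 40 tested members and positive in 4, beside 31.2% and 30.8% of all tested genes. The 14 CRK genes named by rule were all called. They had been picked by the size of called changes, in this comparison among others, so this was in part fixed by the choice. The log2 difference (effect in the *big* background minus effect in Col-0) was negative for 11 of them: -6.58 for *CRK23*, -5.70 for *CRK6*, -5.25 for *CRK37*, -4.79 for *CRK14*, -4.47 for *CRK4*, -4.29 for *CRK7*, -4.16 for *CRK36*, -3.30 for *CRK39*, -2.42 for *CRK10*, -2.33 for *CRK41* and -1.43 for *CRK19*. It was positive for the other 3, at 1.62 for *CRK42*, 1.46 for *CRK21* and 0.37 for *CRK29*. The call of *CRK39* was lost without the second *big* library (-1.95), and that of *CRK29* without either *mips1* library, the first *big* or the first *mips1 big* library (0.26 to 0.37, adjusted p from 0.0549 to 0.116). The summed level of the 4 leaf markers was 23025 and 23495 CPM in Col-0 and 7080 and 7195 in *mips1*. In *big* it was 16325 and 17258 CPM, and in *mips1 big* 12921 and 14629. Its part in these differences was not tested.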

How the results depend on the processing

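Directions and calls of the members were mostly kept. Of 240 member results (40 genes in 6 comparisons), 235 kept both with DESeq2 and 5 lost the call, 239 kept both with RLE size factors, 238 with the replicate block (2 lost the call), and 211 with library size only, where 7 changed sign. With each library left out, 1857 of 1920 kept both, 49 lost the call and 14 gained it.

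The median log2 fold change in *mips1* against Col-0 (3.08) was 3.10 with RLE size factors and with DESeq2, 3.11 without a filter, 3.40 with library size only and 2.24 with at least 10 counts in every library, which leaves 33 members. Under library size only it was 0.62 in *big*, 0.84 in *mips1 big*, 0.23 for *mips1 big* against *big* and -3.09 for the interaction, and with at least 10 counts 0.19, 0.27, -0.047 (a change of sign) and -2.43, and -2.40 for *mips1 big* against *mips1*. With only the libraries compared it was 0.24 in *big*.

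A minimum absolute log2 fold change of 1 left 8 rises and 0 falls in *big*, 1 fall in *mips1 big*, 0 falls for *mips1 big* against *big* and 2 members higher in *mips1 big* than in *mips1*. With library size only, 2 members fell in *big* and 5 in *mips1 big*, beside 2109 and 2848 of all 23916 tested genes. The members that changed sign there were *CRK5* (0.25), *CRK10* (0.11), *CRK18* (0.073) and *CRK42* (0.12) in *mips1 big*, *CRK22* (0.25) and *CRK29* (0.024) in *mips1*, and *CRK40* (0.26) in *big*. The median of all tested genes was then 0.30 in *mips1*, 0.27 in *big*, 0.38 in *mips1 big*, 0.10 for *mips1 big* against *big* and -0.20 for the interaction. The cause of these shifts was not tested.

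When single libraries were left out, the median ranged from 3.03 to 3.13 in *mips1*, 0.33 to 0.43 in *big*, 0.41 to 0.57 in *mips1 big*, 0.11 to 0.19 against *big*, -2.70 to -2.54 against *mips1* and -2.91 to -2.54 for the interaction, and the positive interactions from 2 to 4. In these fits the lone library is assumed to vary like the other lines.

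Libraries of the same number showed no clear common deviation (correlations of -0.22 to 0.21). With 2 libraries per line this cannot show whether they shared a growth batch, which no source states. With the replicate block, 34 members rose and 4 fell in *mips1*, 16 and 4 in *big*, 21 and 12 in *mips1 big*, 13 and 10 against *big*, 4 and 35 against *mips1*, and 4 interactions were positive and 33 negative. Depth limits the members with few reads, such as *CRK31*, *CRK32* and *CRK39*, whose ratios to Col-0 rest on 8 counts or fewer there.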
